A study of Mus musculus with 4 samples.

Results

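Peritubular myoid cells are the flat contractile cells that wrap the seminiferous tubules of the testis. Like other smooth muscle, they contract when phosphorylated myosin pulls on filaments of smooth muscle actin, and calponin, transgelin and tropomyosin sit along those filaments. Genes of this apparatus share control by serum response factor and its cofactors, which act through a DNA element called the CArG box. The genes described here are 8 by name, namely the actins *Acta2* and *Actg2*, the myosin genes *Myh11* and *Myl9*, the filament-binding genes *Tpm2*, *Tagln* and *Cnn1*, and the intermediate filament gene *Des*. They were chosen by name as markers of peritubular myoid cells and smooth muscle, and not by their values. Earlier results of these data were known when they were chosen. Of the 12415 genes with sense-strand exon reads, 7 are in this set, and *Myl9*, which encodes the regulatory myosin light chain, was not analysed here.

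Total RNA came from testes of C57Bl/6J mice at postnatal day 60, with 2 libraries from *Nef-sp* -/- males, called knockout here, and 2 from *Nef-sp* +/- males, called heterozygous. The mutant allele carries an out-of-frame deletion of 23 bp made in embryos with a Cas9 nickase and a pair of guide RNAs, and both groups carry it, the controls in 1 copy. NEF-sp is an RNA exonuclease, as the authors showed with recombinant human protein, and its transcript was detected in testis. Tagged mouse NEF-sp was nuclear in cell cultures, and the authors could not detect the endogenous protein in mouse testes. The comparison asks whether RNA levels differ when both copies of the gene are mutant. The labels do not say whether libraries of a genotype came from different animals, so that p-values measure the spread between these libraries, which may be technical.

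Exon sense reads numbered between 15815159 and 26618821 per library, and heterozygous replicate 2 was the deepest. Normalized counts are read counts scaled to a common library size. The targeted gene, listed as 2610020H08Rik, had normalized counts of 1843 and 1693 in heterozygous and 407 and 497 in knockout testes, the lower pair being the knockout libraries (log2 fold change −1.97, SE 0.0921, adjusted p = 4.12e-06). It was the only one of 10728 genes tested that was called at an adjusted p of 0.05 by edgeR's quasi-likelihood test, a share of 0.00932%. At an unadjusted p below 0.05, 4.8% of the genes tested would pass, and in 34.5% the 2 genotypes did not overlap.

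The 2 smooth muscle actins come from different genes, *Acta2* (ENSMUSG00000035783) at chr19:34315580-34329826 and *Actg2* (ENSMUSG00000059430) at chr6:83462899-83486259 of mm9, both on the minus strand with 9 exons. Because only perfect matches were kept, related actins could share full-length reads of 50 bases only where their RNA is identical over 50 bases. Reads cut shorter by adapter removal could match shorter identical runs. Only transcripts of protein-coding genes were searched for such stretches, and the rest of the genome was not. The coding sequence of *Actg2* equals that of *Acta2* at 84.4% of positions, and none of its 1481 stretches of 50 bases occurs in a transcript of another protein-coding gene. In *Acta2*, 7 of 1732 stretches, or 0.404%, occur elsewhere, all in the cytoplasmic actin gene *Actg1*. These 7 stretches lie in a window of 56 bases within 1 coding exon. The window is printed because full-length *Acta2* reads can be mistaken there for those of a far more abundant actin. Capitals mark bases that differ from *Acta2*, 0 in *Actg1*, 3 in the cytoplasmic actin gene *Actb* and 5 in *Actg2*. In mm9, the windows are at chr19:34317832-34317887, chr11:120207976-120208031, chr5:143665771-143665826 and chr6:83466287-83466342, in the order of the lines and all on the minus strand.
Acta2: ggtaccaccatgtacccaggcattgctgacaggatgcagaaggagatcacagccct
Actg1: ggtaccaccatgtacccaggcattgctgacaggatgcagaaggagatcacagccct
Actb: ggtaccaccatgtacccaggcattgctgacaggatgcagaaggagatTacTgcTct
Actg2: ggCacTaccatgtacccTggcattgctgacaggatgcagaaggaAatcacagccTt

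None of the 6 genes tested was called, and none had an unadjusted p below 0.05, against the 0.00932% and 4.8% of all genes. *Des* was too low for the test. The fitted log2 fold change of knockout over heterozygous testes was positive for *Actg2* and *Tagln* and negative for *Acta2*, *Myh11*, *Tpm2* and *Cnn1*. The median over the 6 genes was −0.05, and the median over all genes was −0.0002. In size, the median difference of the 6 genes was 0.0806 on the log2 scale, beside 0.0715 over all genes. The genotypes did not overlap in 2 of the 6, *Acta2* and *Tpm2*, with the knockout lower in both, which is close to the background share of 34.5%. In bulk tissue, fewer cells of a type cannot be told apart from less RNA per cell.

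**Figure D1:**
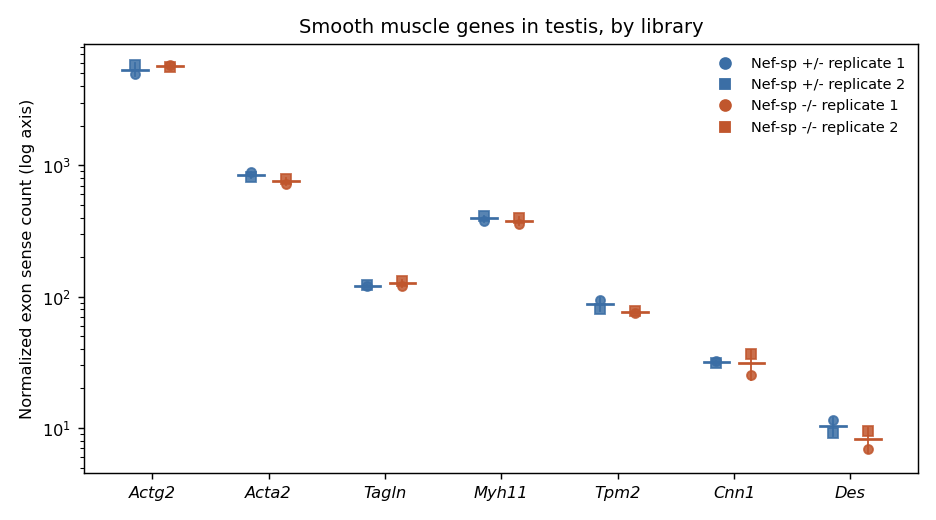
Normalized exon sense counts (log axis) of the 7 smooth muscle genes listed, in each of the 4 libraries. Points are libraries, horizontal bars are genotype means and vertical bars are SDs (n = 2). From *Actg2*, at 4931 to 5841, to *Des*, at 6.93 to 11.5, the spread between genes is far wider than that between genotypes.

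*Actg2*, the gamma actin of enteric smooth muscle, was by far the most abundant gene of the set. Its transcript is also known from postmeiotic male germ cells of the mouse. Its normalized counts were 4931 and 5780 in heterozygous and 5841 and 5559 in knockout testes. Heterozygous replicate 1 was the lowest library, and the other heterozygous library lay between the knockout values, so that the genotypes overlapped. The log2 fold change was 0.09 (SE 0.0766, 95% interval −0.08 to 0.26, adjusted p = 0.956). The value rested on single control libraries, being −0.02 without heterozygous replicate 1 and 0.21 without heterozygous replicate 2, where the adjusted p was 0.0807.

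*Acta2*, the alpha actin of vascular smooth muscle and the customary marker of peritubular myoid cells, had normalized counts of 883 and 818 in heterozygous and 725 and 788 in knockout testes. Both knockout libraries were below both controls, and the level was 89.0% of the control mean. The gap between the nearest libraries of the 2 genotypes was smaller than the gap within either genotype. The log2 fold change was −0.16 (SE 0.0750, 95% interval −0.33 to 0.0014, adjusted p = 0.954). Leaving out any single library kept it between −0.22 and −0.11.

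The 2 actins did not keep a fixed proportion from library to library. Per exon length, *Actg2* was 6.37 and 8.06 times *Acta2* in heterozygous and 9.18 and 8.04 times in knockout testes. Heterozygous replicate 1 was lowest and knockout replicate 1 highest in this ratio, and the second replicates of the genotypes were nearly equal. *Actg2* supplied 76.4% and 79.7% of all reads of the 7 genes in heterozygous and 81.7% and 79.4% in knockout testes. A summed count over the set is therefore mostly a count of *Actg2*. The sum was 0.0354% and 0.0387% of exon sense reads in heterozygous and 0.0379% and 0.0374% in knockout testes. Without *Actg2*, it was 0.00835% and 0.00783% in heterozygous and 0.00694% and 0.00769% in knockout testes. The knockout libraries were then the lower pair by a small margin. This remainder was mostly a count of *Acta2*. Its reads were 767 of 1321 and 1161 of 2085 in heterozygous and 628 of 1135 and 666 of 1216 in knockout testes. Among single genes tested, the genotypes did not overlap in 34.5%.

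*Myh11*, the smooth muscle myosin heavy chain and the motor of the apparatus, lies at chr16:14194620-14291501 on the minus strand (ENSMUSG00000018830). Its normalized counts were 379 and 408 in heterozygous and 357 and 395 in knockout testes. The genotypes overlapped, the log2 fold change was −0.07 (SE 0.0903, 95% interval −0.27 to 0.13), and the adjusted p was 0.956. With single libraries left out, it ran from −0.14 without knockout replicate 2 to −0.0002 without knockout replicate 1. Of its 6629 stretches of 50 bases, 26 occur in the nonmuscle myosin heavy chain genes *Myh9* or *Myh10*, which is 0.392%.

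*Tpm2*, the beta tropomyosin that lies along the actin filament, is at chr4:43527583-43536637 on the minus strand (ENSMUSG00000028464). It had normalized counts of 94.4 and 80.3 in heterozygous and 75.1 and 78.1 in knockout testes. The knockout libraries were below the controls, but heterozygous replicate 2 was only slightly above them and heterozygous replicate 1 accounted for most of the gap. It had a log2 fold change of −0.17 (SE 0.165, 95% interval −0.53 to 0.20, adjusted p = 0.956), and 19.2% of all genes tested had a difference of greater size. It was −0.07 without heterozygous replicate 1 and −0.30 without heterozygous replicate 2.

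*Tagln*, which encodes the actin-bundling protein transgelin (SM22), lies at chr9:45737711-45744141 on the minus strand (ENSMUSG00000032085). Its normalized counts of 121 and 122 in heterozygous and 121 and 131 in knockout testes nearly coincided. Its log2 fold change was 0.06 (SE 0.131, 95% interval −0.23 to 0.35, adjusted p = 0.983), and it was 0.0015 without knockout replicate 2 and 0.11 without knockout replicate 1.

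*Cnn1*, which encodes the actin-binding protein calponin, lies at chr9:21903725-21914074 on the plus strand (ENSMUSG00000001349). Its normalized counts were 32.2 and 31.0 in heterozygous and 25.4 and 36.7 in knockout testes, resting on 22 to 44 reads per library. The controls lay between the knockout libraries. Its log2 fold change was −0.02 (SE 0.260, 95% interval −0.60 to 0.55, adjusted p = 0.995), and without knockout replicate 1 it was 0.22.

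*Des*, which encodes desmin, the intermediate filament protein of muscle, lies at chr1:75356904-75365154 on the plus strand (ENSMUSG00000026208). It was counted with 10 and 13 reads in heterozygous and 6 and 8 reads in knockout testes. The exact 95% Poisson intervals of these counts, which cover counting error only, were 4.80 to 18.4, 6.92 to 22.2, 2.20 to 13.1 and 3.45 to 15.8, and all overlap. When all genes were tested without the filter on low counts, its log2 fold change was −0.29 with an edgeR adjusted p of 0.966.

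**Figure D2:**
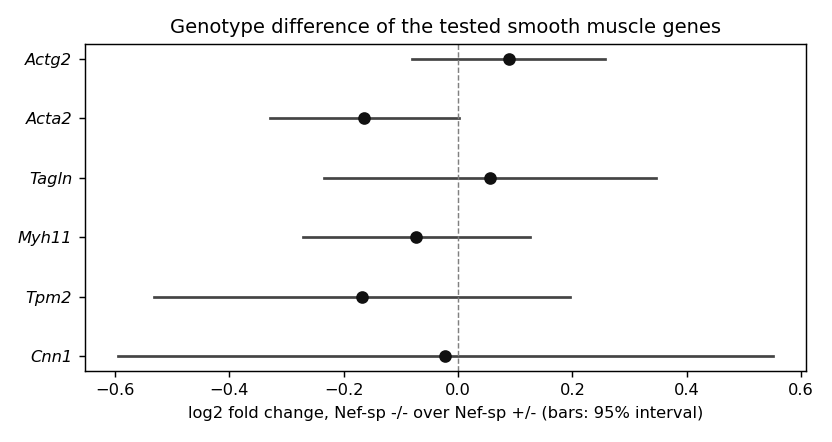
The log2 fold change (x axis) of *Nef-sp* -/- over *Nef-sp* +/- testes for the 6 smooth muscle genes tested (2 libraries per genotype), with 95% intervals from edgeR. Every interval spans 0, from the narrow ones of *Actg2* and *Acta2* to that of *Cnn1*, which reaches from −0.60 to 0.55.

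Levels can be compared between genes only per length, and were computed as RPKM, the reads per kilobase of exon scaled to the exon sense reads of the library. *Actg2* stood at 190 (range over the 4 libraries 169 to 201), above 96.8% of the genes with a length. *Acta2* was at 24.2 (21.9 to 26.6), above 77.4% of these genes. *Tagln* at 4.19 (4.09 to 4.45) and *Myh11* at 3.11 (2.89 to 3.31) lay just below the median of all genes, which was 4.70. *Tpm2* at 1.51 (1.39 to 1.74), *Cnn1* at 0.710 (0.576 to 0.832) and *Des* at 0.132 (0.0991 to 0.165) followed. No neighbours in this order overlapped in their ranges over the 4 libraries. *Des* was above 12.2% of the genes with a length, so that the set spanned most of the range of the testis transcriptome. The top of that span was *Actg2* alone, and without it the set reached 77.4%, at *Acta2*.

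**Figure D3:**
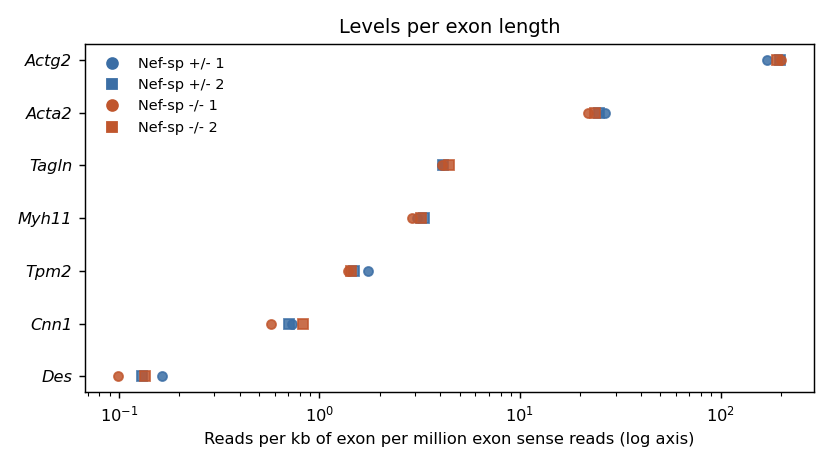
RPKM (log axis) of the 7 smooth muscle genes in each of the 4 libraries, 1 point per library. *Actg2* at 190 stands apart from *Acta2* at 24.2, and the order of the genes is the same in each library.

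Several nonmuscle relatives of these genes were more abundant. In RPKM, the cytoplasmic actins were at 351 (*Actb*) and 433 (*Actg1*), and *Actg1* was thus 17.9 times *Acta2*, whose window of 56 bases it shares. Among the myosin heavy chains, the nonmuscle gene *Myh10* at 10.8 was above *Myh11*, and *Myh9* at 0.210 was below it. Among the tropomyosins, *Tpm2* was the lowest, after *Tpm3* at 9.88, *Tpm1* at 3.42 and *Tpm4* at 3.16. *Vim*, which encodes the intermediate filament protein of mesenchymal and Sertoli cells, was at 27.3 and *Des* at 0.132. *Tagln* was above its relative *Tagln2*, which was at 0.105. *Cnn1* was below *Cnn3*, at 1.22, and did not differ from *Cnn2* beyond the range over libraries, which was 0.362 to 0.882 for *Cnn2*.

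The promoter of *Acta2* is shown because it holds near matches to the CArG box, the element through which serum response factor acts. The RefSeq promoter table (GRCm38.p6, 250 bases before to 50 after the start) holds 5 of the 8 genes, *Acta2*, *Cnn1*, *Des*, *Myl9* and *Tpm2*. The CArG box was searched as a palindrome, which reads alike on both strands, with 1 of its 6 central bases allowed to be C or G. *Acta2* and *Myl9* hold such matches, 2 of 5, and so do 9.98% of the 32851 promoters in the table. With no such base allowed, 1 of the 5, *Myl9*, and 1.63% of all promoters match. The 2 matches in *Acta2*, in capitals, start 84 and 34 bases before the transcription start. A match is a description of the sequence and not a measured binding site. The stretch is at chr19:34255383-34255472 of GRCm38, on the minus strand.
Acta2 promoter: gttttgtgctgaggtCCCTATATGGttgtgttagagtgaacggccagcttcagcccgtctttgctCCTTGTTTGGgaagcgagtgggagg

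Reads of the same genes outside exons were few. *Actg2* was the only gene of the set with enough intron sense reads to be tested. Its normalized intron counts were 125.5 and 125.1 in heterozygous and 123 and 108 in knockout testes. For introns, the log2 fold change was −0.12 (SE 0.174, adjusted p = 0.9996), opposite in sign to the fitted value of its exons, and neither was called. Of 3403 genes tested on intron sense reads, 0.0294% were called. Per length, *Actg2* introns had between 0.146% and 0.187% of the level of its exons. *Tpm2* had 8 and 5 intron sense reads in heterozygous and 5 and 1 in knockout testes, too few to test.

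On the opposite strand, *Tagln* was the only gene of the set listed. Antisense reads over its exons numbered 9 and 11 in heterozygous and 15 and 18 in knockout testes. The normalized antisense counts were 10.5 and 7.63 in heterozygous and 17.5 and 21.4 in knockout testes. Their log2 fold change was 1.14 (SE 0.438, 95% interval 0.25 to 2.03), and with an adjusted p of 0.996 it was not called. *Tagln* was among the 2.98% of the 1008 genes tested on antisense exon reads that had an unadjusted p below 0.05, and 0% were called. The last 65 bases of *Tagln* (chr9:45737711-45737775) overlap the gene *Pcsk7*, a proprotein convertase gene on the plus strand, whose reads would count there as antisense reads of *Tagln*. The sense exon counts of *Pcsk7* were 442 and 517 in heterozygous and 527 and 439 in knockout testes (log2 fold change −0.0015, adjusted p = 0.9998), and their part in the antisense reads of *Tagln* was not tested. The 3′ end of *Des* likewise overlaps a gene on the minus strand, Gm15179, over 368 bases. Libraries were strand specific, so that sense counts of *Tagln* and *Des* are counted apart from these neighbours.

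The wider contractile apparatus was examined in a list of 39 other genes, of which 35 were listed and 30 tested. None was called, 15 had a positive and 15 a negative fitted value, and the median log2 fold change was 0.007. Those with the highest normalized counts, which also grow with transcript length, were *Ppp1cb*, *Rock1*, *Rhoa*, *Vim*, *Flna* and *Ppp1r12a*, which encode subunits of myosin phosphatase, its upstream kinase and GTPase, vimentin and the actin crosslinker filamin, and their log2 fold changes lay between −0.12 and 0.11. *Actn1*, which encodes the actin-anchoring protein alpha-actinin, was the only one with an unadjusted p below 0.05. Its normalized counts of 33.4 and 31.7 in heterozygous and 18.5 and 22.5 in knockout testes did not overlap, with a log2 fold change of −0.66 and an adjusted p of 0.954.

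Of 12 transcriptional regulators of smooth muscle genes, 8 were listed, 7 were tested and none was called. *Srf*, which encodes serum response factor, had normalized counts of 710 and 699 in heterozygous and 711 and 685 in knockout testes (log2 fold change −0.01, adjusted p = 0.990). *Mef2a*, a myocyte enhancer factor gene, was at 415 and 433 in heterozygous and 422 and 511 in knockout testes, with a log2 fold change of 0.13 that turned to −0.01 without knockout replicate 2. *Myocd*, which encodes the smooth muscle cofactor myocardin, was not analysed here. The list of other actins, myosins and light chains had 7 genes tested and none called, and the log2 fold changes were 0.01 for *Actb* and −0.05 for *Actg1*. The value of *Actb* was −0.01 when libraries were scaled by their totals alone.

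**Figure D4:**
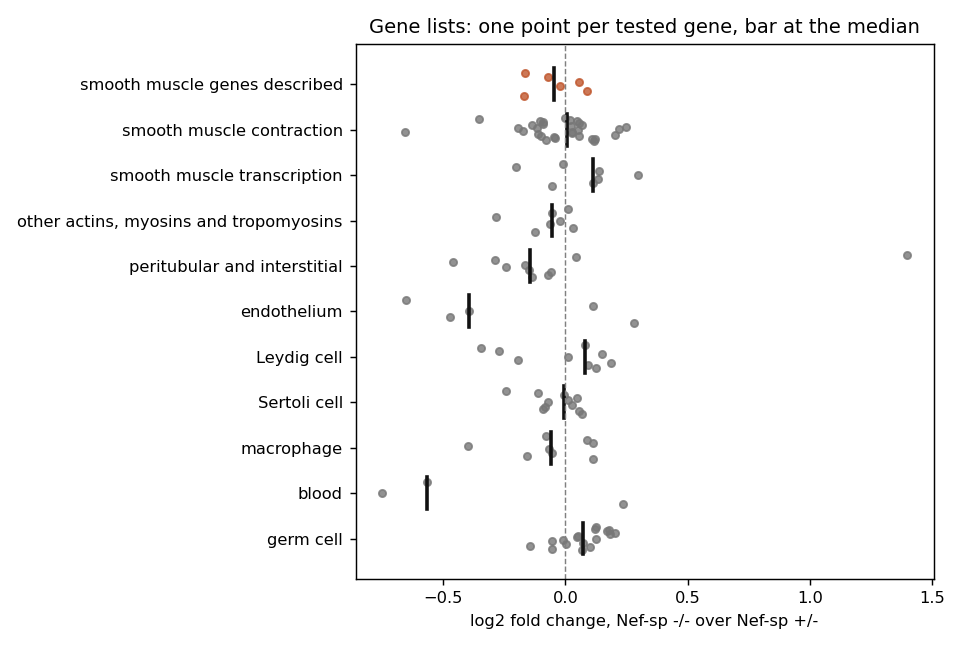
The log2 fold change of knockout over heterozygous testes (x axis) for each gene tested, by list, with a bar at the median. The smooth muscle genes described lie within −0.17 and 0.09, and no gene of any list shown was called.

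Other cell types share these genes or surround the cells that express them, and their markers were set beside the set. Vascular smooth muscle and pericytes also use *Acta2*, *Tagln* and *Myh11*. Of 10 markers of these cells, 4 were listed, and all were near 0. *Rgs5*, the highest, had 5 or 6 reads per library, and together the 4 had between 4.13e-05% and 6.95e-05% of exon sense reads. Of 14 striated muscle markers, 3 were listed, with most of the reads in *Actn3*, and the creatine kinase gene *Ckm* was not among them. Of 12 epididymis markers, 2 were listed. Of 14 endothelial markers, 10 were listed, together at 0.000740% to 0.000894% of exon sense reads, and none of the 5 tested was called, with *Egfl7* at −0.40 and *Cldn5*, a tight junction gene, at 0.28 on the log2 scale.

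In the list of peritubular and interstitial genes, most fitted values were negative, as for *Acta2*. Most Leydig cell genes had positive ones, as did *Actg2* and *Tagln*, and no gene of either list was called. Of 20 peritubular and interstitial genes, 14 were listed and 10 tested. Of those tested, 8 had a negative fitted value, and the median log2 fold change was −0.14. Of all 10728 genes tested, 5380 had a negative fitted value. The sum over the 14 listed genes was 0.0476% and 0.0440% of exon sense reads in heterozygous and 0.0400% and 0.0414% in knockout testes. *Sparc* weighed most in it, at 6794 and 6431 normalized counts in heterozygous and 5940 and 6088 in knockout testes. The next gene, *Dcn*, was at 958 and 930 in heterozygous and 803 and 790 in knockout testes. The matrix genes *Dcn* and *Sparc* were at −0.24 and −0.14 on the log2 scale and *Pdgfra*, a platelet-derived growth factor receptor gene, at −0.29, each with an adjusted p of 0.954. These 3 had an edgeR unadjusted p below 0.05 with negative fitted values, and 1 gene, *Ptch1*, did with a positive one. Of all genes tested, 4.8% passed that threshold. The defining genes *Gli1* and *Hhip* of the hedgehog response were not among those listed, and *Ptch1*, the hedgehog receptor gene, had a positive fitted value, with 7 and 7 reads in heterozygous and 13 and 15 in knockout testes (log2 fold change 1.40, adjusted p = 0.954). Of 9 Leydig cell genes, all were tested and none called, 6 with a positive and 3 with a negative fitted value and a median log2 fold change of 0.08. Their sum was 0.111% and 0.109% of exon sense reads in heterozygous and 0.102% and 0.0904% in knockout testes. The steroid-forming enzyme genes *Cyp11a1* and *Cyp17a1* weighed most in it. Their mean normalized counts were 3380 and 10413 in heterozygous and 2654 and 8617 in knockout testes. They were also the 2 with an edgeR unadjusted p below 0.05. Their fitted values were −0.35 and −0.27 on the log2 scale, with edgeR adjusted p-values of 0.859 and 0.954. With single libraries left out, *Cyp11a1* ran from −0.48 to −0.22 and *Cyp17a1* from −0.39 to −0.16. The part of interstitial cells in the difference of *Acta2* was not tested.

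Some germ cell markers had the same lowest library as *Actg2*. The 18 germ cell genes together held 3.05% and 3.47% of exon sense reads in heterozygous and 3.53% and 3.49% in knockout testes, with heterozygous replicate 1 the lowest, as in *Actg2*. Gene by gene, that library was the lowest for 7 of the 17 tested, and for 26.8% of all genes tested. Of these 17 genes, none was called, 13 had a positive fitted value and the median log2 fold change was 0.07. *Tnp1* and *Akap4*, which encode a spermatid nuclear protein and a sperm tail scaffold, had log2 fold changes of 0.18 and 0.20, and *Prm2*, a protamine gene, 0.12. *Ldhc*, which encodes the lactate dehydrogenase of germ cells and had counts of similar size, was at 0.05, and its lowest library was heterozygous replicate 2. Without heterozygous replicate 2, the log2 fold changes were 0.29 for *Tnp1*, 0.38 for *Akap4*, 0.36 for *Prm2* and 0.21 for *Actg2*. Without heterozygous replicate 1, they were 0.08, 0.05, −0.08 and −0.02 in the same order. These genes all had heterozygous replicate 1 as their lowest library. *Ldhc* moved the other way, to 0.02 without heterozygous replicate 2 and 0.07 without heterozygous replicate 1. The part of germ cells in the reads of *Actg2* was not tested.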

How the data were processed

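Total RNA of 4 mouse testes libraries was depleted of ribosomal RNA, made into strand-specific libraries and read for 50 cycles. After adapter removal, the authors aligned the reads to mm9 by in-house tools, retained only perfect matches, and deposited the raw counts of each feature by annotation category and strand. The table lists features with at least 5 reads over the libraries. The treatment of reads with several matches is not given in the sources used here. The authors also deposited a mean normalized signal, a log2 fold change and p-values from DESeq2, which hold their own comparison and were not used.

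Gene exon sense counts were fitted with edgeR 4.0.16 in R 4.3.3 (quasi-likelihood test, TMM normalization, filterByExpr with a minimum count of 10), and p-values were adjusted over all 10728 features tested by the Benjamini-Hochberg method. Gene intron sense and gene exon antisense counts were fitted likewise, each on its own. The genotype of each library came from the labels. Library totals were between 20659865 and 34442517 reads over all categories. Replicates differed by more than counting noise, the chi-square over its degrees of freedom being 8.53 for heterozygous and 3.52 for knockout libraries, so each library was 1 sample. The fit was tested on simulated data.

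The genes and lists were chosen with earlier results of these data known. Besides the 8 genes, *Nef-sp* and *Actb*, named are the 2 tested genes of each list with the highest normalized counts (6 for contraction), those with an unadjusted p below 0.05, and the 5 genes nearest to the set's median profile. Other genes are named for their role or a shared sequence. Lengths came from the union of exons in GENCODE vM1 (mm9), which matched 11414 of the 12415 features. The annotation the authors used is not given in the sources used here. Alternatives were the size factors of DESeq2, library totals without TMM, DESeq2 1.42.0, no filter, a minimum of 10 counts per library, the replicate number as a replicate block, and leaving out single libraries. Figures were drawn with matplotlib 3.10.9.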

Additional observations from a re-analysis of the deposited data

How the results depend on the processing

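In each of 10 alternatives, 0 of the smooth muscle genes and 0 of the contraction list were called. The number of genes called over all features was 2 with DESeq2 and 1 to 252 with a library left out, of which 41 without heterozygous replicate 1 and 252 without heterozygous replicate 2. At an unadjusted p below 0.05, the smooth muscle genes numbered 0 in edgeR and DESeq2, 1 with library totals and no TMM, 2 without heterozygous replicate 2 and 1 without knockout replicate 2, where 5.34%, 9.44% and 3.56% of all genes passed. The median log2 fold change of the 6 genes ran from −0.1683 to 0.0262 with a library left out. With the replicate block, *Acta2* was at −0.165 and *Actg2* at 0.093, and it changed no call. The labels do not say that equal numbers mark shared animals or days, and libraries of equal number deviated from their group means with a correlation of −0.082, so the numbers were not taken as pairs. Library totals without TMM turned *Actb* to −0.0145, *Clu* to −0.0133 and *Lrrn4* to −0.0074, and the replicate block turned *Lrrn4* to −0.0150. With a library left out, values that changed sign ranged from −0.0193 to 0.2096 for *Actg2*, −0.3043 to 0.2201 for *Cnn1*, −0.0577 to 0.0769 for *Actb*, −0.0388 to 0.1670 for *Ppp1r12a*, −0.0398 to 0.0182 for *Srf*, −0.0092 to 0.2653 for *Mef2a*, −0.0165 to 0.0420 for *Clu*, −0.0048 to 0.1145 for *Gatm*, −0.0284 to 0.2461 for *Mrc1*, −0.2887 to 0.2616 for *Lrrn4*, −0.4440 to 0.1606 for *Krt8*, −0.0797 to 0.3559 for *Prm2*, −0.1330 to 0.0160 for *Mbip*, −0.1306 to 0.0204 for *Aen*, −0.1221 to 0.0015 for the gene listed as NM_172895 and −0.1284 to 0.0054 for *Ak3*. The cause of these changes was not tested. With 1 library left in a genotype, it was assumed to vary like the others. The antisense value of *Tagln* and the intron value of *Actg2* were run under the same alternatives after they were seen, and lay between 0.8777 and 1.3233 and between −0.2280 and −0.0309, with none called. For *Tagln*, the minimum of 10 counts per library gave no value, since 1 library had 9 antisense reads. Low counts leave *Des* and *Cnn1* the least precise.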

Other observations

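Sertoli cell and macrophage genes, which share the tubule wall and the space around it with myoid cells, were not called either. Of 11 Sertoli cell genes tested, 5 had a positive and 6 a negative fitted value, with log2 fold changes of 0.01 for *Clu* and 0.05 for *Gatm*, those with the highest counts. Of 8 macrophage genes tested, *C1qa*, a complement gene, was the one with an unadjusted p below 0.05, at 104 and 116 normalized counts in heterozygous and 82.0 and 86.4 in knockout testes (log2 fold change −0.40, not called). *Mrc1* and *Aif1*, those with the highest counts, were each at 0.11. The haemoglobin gene *Hba-a2* is a sign of blood in the tissue, and its reads may be split with a near-identical copy. Its normalized counts were 238 and 332 in heterozygous and 194 and 200 in knockout testes. The log2 fold change was −0.57 (edgeR adjusted p = 0.922), and it was −0.75 without heterozygous replicate 1 and −0.27 without heterozygous replicate 2. *Alas2*, the heme synthesis gene of red cells, had a positive fitted value of 0.23 (edgeR adjusted p = 0.954). Its normalized counts were 218 and 187 in heterozygous and 226 and 244 in knockout testes. Of the 3 blood genes tested, 2 had a negative fitted value and none was called. The remaining one, the haemoglobin gene *Hbb-b1*, was at −0.75, and its genotypes overlapped. The surface genes *Lrrn4* and *Krt8*, markers of the tunica mesothelium, were at 0.01 and −0.11, and *Rnase10*, an epididymis gene, at 0.38.

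The genes nearest in profile over the 4 libraries to the median of the smooth muscle genes were *Mbip*, *Aen*, the gene listed as NM_172895, *Ak3* and 9130404D08Rik, at distances of 0.0156 to 0.0172 on the log2 scale (root mean square). The closest gene of the set lay at 0.0426, and 42.1% of all genes tested lay within the median distance of the set's own genes, 0.0884, so that likeness over 4 libraries singled out no gene in particular.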
